A study of Mus musculus with 3 samples.

Results

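The regions described here are the NBS1 peaks of the R2K.Artm line that had no counterpart among the NBS1 peaks of the AH2 line. They were chosen by taking each interval of the deposited R2K.Artm NBS1 peak list that shared not even 1 base with an interval of the AH2 NBS1 list. Of the 3192 R2K.Artm intervals, 1533 met this condition, 48.0% of the list. Left out were 39 on unplaced sequence, 114 on chromosomes X, Y or M, 32 that started below 5 Mb of an autosome, and 15 in the windows of 4 Mb around the immunoglobulin heavy chain (Igh) and kappa (Igk) loci. The 1333 that remained were 50.5% of the 2639 R2K.Artm intervals kept by the same exclusions, and are called R2K.Artm-only intervals. The other 1306 are called shared intervals. The 4 lists of the series hold 21785 intervals in all.

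AH2 and R2K.Artm are both v-Abl-transformed mouse pre-B lines. The viral kinase v-Abl, from the Abelson virus, keeps the cells dividing at an early stage of B cell development. The series consists of NBS1 chromatin immunoprecipitation sequencing (ChIP-seq) from AH2, the same from R2K.Artm with the same rabbit monoclonal antibody, and sequencing of AH2 input, chromatin taken without an antibody. The labels list no genotype and no treatment for either line, so how the lines differ is not given in the sources used here, and there was no input from R2K.Artm among the libraries analysed here. Each of the 3 groups is 1 library, so no value below has a replicate error and none was tested between groups. The number of reads behind each list is unknown, intervals of a share cover counting error only, and a region absent from a list is not shown to lack NBS1.

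NBS1 is the regulatory subunit of the MRE11-RAD50-NBS1 complex. The complex holds on to broken DNA ends, tethers them, and recruits and activates the kinase ATM, which signals the break. In developing B cells, such breaks arise at antigen receptor genes when the RAG1/2 recombinase cuts beside V, D and J segments, and the study's title asks about RAG1/2 breaks elsewhere in the genome. A region that gains reads in input as well, such as a repeat collapsed in the reference, can be called a peak without any NBS1 there, which is why intervals with and without an input peak are given apart.

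Most R2K.Artm-only intervals overlapped no input peak. Of the 1333, 1190 overlapped no AH2 input interval and 143 did, 10.7% (95% Wilson interval 9.18 to 12.5%), against 34.3% of all 2639 R2K.Artm intervals kept. Among shared intervals 761 of 1306 overlapped input, 58.3% (55.6 to 60.9%). The counterpart in the other line was close to the first value: of the 3028 AH2 NBS1 intervals without an R2K.Artm overlap, 69.6% of the 4351 kept in that list, 313 overlapped an AH2 input interval, 10.3% (9.30 to 11.5%). The counting intervals of these 2 shares, one from each line, overlapped; the input library came from AH2.

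The scores of R2K.Artm-only intervals were low within their own list. The score is the value that the authors' peak caller gave each interval, with a minimum of 50, and it is used here only within 1 list. The choice of intervals rests on the same NBS1 peak calls, so the scores are given as a description. Intervals without an input peak had a median score of 56.2, with the middle 50% from 52.8 to 63.6 and the highest at 159. Those with an input peak had a median of 66.7, with the middle 50% from 58.8 to 82.1 and the highest at 178. Shared intervals had medians of 74.7 without and 148 with an input peak, and reached 3100. A score under 55 was given to 514 of the 1190 intervals without input, 43.2%, to 20 of the 143 with input, 13.99%, and to 89 of the 1306 shared intervals, 6.81%. Only 49 R2K.Artm-only intervals, 3.68% (2.79 to 4.83%), reached a score of 100, against 26.1% of all R2K.Artm intervals kept. Of those 49, 31 had no input peak and 18 had one.

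**Figure D1:**
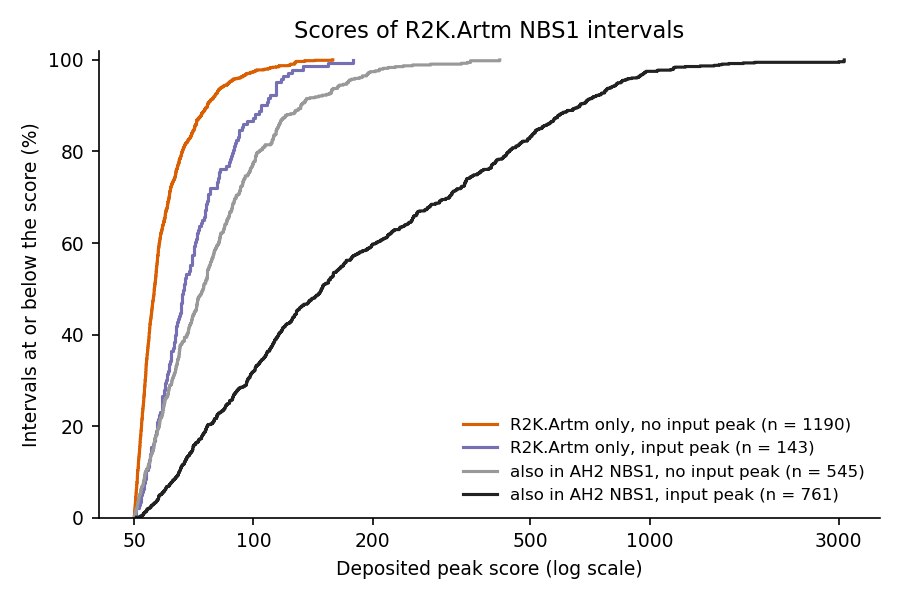
Cumulative share of R2K.Artm NBS1 intervals (%, vertical axis) at or below each deposited peak score (log scale), for intervals with and without an AH2 NBS1 overlap and with and without an AH2 input overlap. The curve of R2K.Artm-only intervals without input rises first, with a median of 56.2, and that of shared intervals with input rises last, with a median of 148.

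The share of R2K.Artm intervals that were absent from AH2 NBS1 was lower in each higher class of score, which again describes the choice. It was 85.7% of the 623 intervals with scores from 50 to under 55, 60.8% of the 401 from 60 to under 70, 31.8% of the 267 from 80 to under 100 and 17.1% of the 269 from 100 to under 150. At 150 and over, 3 of 420 were R2K.Artm-only, 0.714%.

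At like scores, the input share of R2K.Artm-only intervals was below that of shared intervals in each class, a difference that was not tested. The AH2 NBS1 list that divides the 2 sets and the input both came from AH2. The comparison is therefore not independent of the choice. From 50 to under 55, 20 of 534 R2K.Artm-only intervals overlapped input, 3.75% (2.44 to 5.71%), against 17 of 89 shared intervals, 19.1% (12.3 to 28.5%). From 60 to under 70 the shares were 15.2% (11.2 to 20.2%) and 40.8% (33.4 to 48.6%). From 100 to under 150 they were 34.8% (22.7 to 49.2%), on 46 R2K.Artm-only intervals, and 64.1% (57.6 to 70.1%), on 223 shared ones. The counting intervals were apart in these 3 classes. They were also apart from 55 to under 60, at 4.88 to 10.8% and 21.9 to 39.6%, and from 70 to under 80, at 13.8 to 28.04% and 31.4 to 47.5%. They just overlapped from 80 to under 100, at 17.8 to 36.1% and 35.9 to 50.1%. The class from 150 held 3 R2K.Artm-only intervals, 2 of them with an input peak, too few to compare.

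**Figure D2:**
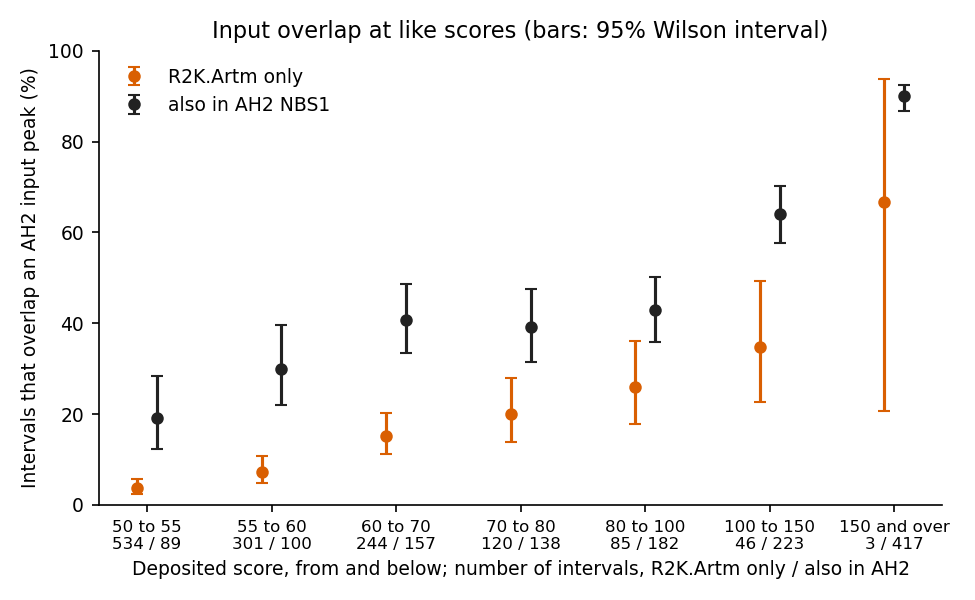
Share of intervals that overlap an AH2 input peak (%, vertical axis) by class of deposited R2K.Artm score, for R2K.Artm-only and shared intervals; points are shares, bars 95% Wilson intervals, and the numbers under each class are interval counts. The R2K.Artm-only share lies under the shared one in every class, from 3.75% against 19.1% in the lowest class to 34.8% against 64.1% from 100 to under 150.

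The input peaks under R2K.Artm-only intervals had lower scores, within the input list itself, than those under shared intervals. The 144 input intervals under the 143 had a median input score of 85.5, with the middle 50% from 66.2 to 124 and the highest at 618. The 773 under shared intervals had a median of 185, and all 10536 input intervals kept by the exclusions had 59.5. An input score of at least 100 was held by 55 of the 144, 38.2%, by 576 of the 773, 74.5%, and by 10.96% of all. Where input overlapped an R2K.Artm-only interval it covered most of it: the median covered share was 80.4%, 114 of the 143 were covered over at least 50% of their length, and 29 were covered whole.

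Of the 1333 R2K.Artm-only intervals, 678 were above 120 and up to 160 bp wide, 50.9% (48.2 to 53.5%), against 39.7% of all R2K.Artm intervals kept. The median width was 143 bp without an input peak, with the middle 50% from 122 to 160 bp, and 133 bp with one, with the middle 50% from 93 to 164 bp. Widths above 120 and up to 160 bp were held by 629 of the 1190 intervals without input, 52.9% (50.02 to 55.7%), by 49 of the 143 with input, 34.3% (27.0 to 42.4%), and by 28.3% (25.9 to 30.8%) of shared intervals. The shares of shared intervals were 34.5% (30.6 to 38.6%) without and 23.8% (20.9 to 26.9%) with an input peak. Intervals under 100 bp were 121 of the 1190, 10.2% (8.58 to 12.02%), and 41 of the 143, 28.7% (21.9 to 36.6%), where 17.3% of all R2K.Artm intervals kept were so narrow. Over 300 bp wide were 25 and 6 intervals, 2.33% of the R2K.Artm-only set, against 4.85% of all R2K.Artm intervals kept and 97 shared intervals, 7.43%. Together the R2K.Artm-only intervals covered 199 kb and the shared ones 235 kb.

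Most of the high scores of the set were in its narrowest intervals, although the highest of each class was over 200 bp wide. Among the intervals without an input peak, those of up to 80 bp had a median score of 84.0 and those above 140 and up to 160 bp had 53.7. With an input peak the values were 95.1 and 63.5, and for shared intervals they were 112 and 75.2. A score of at least 100 was held by 37 of the 162 R2K.Artm-only intervals under 100 bp, 22.8% (17.0 to 29.9%), and by 12 of the 1171 wider ones, 1.02% (0.587 to 1.78%). Among shared intervals, these shares were 55.8% (50.1 to 61.3%) of the narrow and 47.04% (43.98 to 50.1%) of the wider. Shared intervals without an input peak also had the larger share among the narrow, 46 of 128, 35.9% (28.1 to 44.5%), against 76 of 417 wider ones, 18.2% (14.8 to 22.2%). For those with an input peak the shares were 71.1% (63.8 to 77.4%) and 67.2% (63.4 to 70.9%). An input peak was overlapped by 25.3% (19.2 to 32.5%) of the narrow R2K.Artm-only intervals and by 8.71% (7.23 to 10.5%) of the wider ones. For all shared intervals the input shares were 56.5% and 58.8%.

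**Figure D3:**
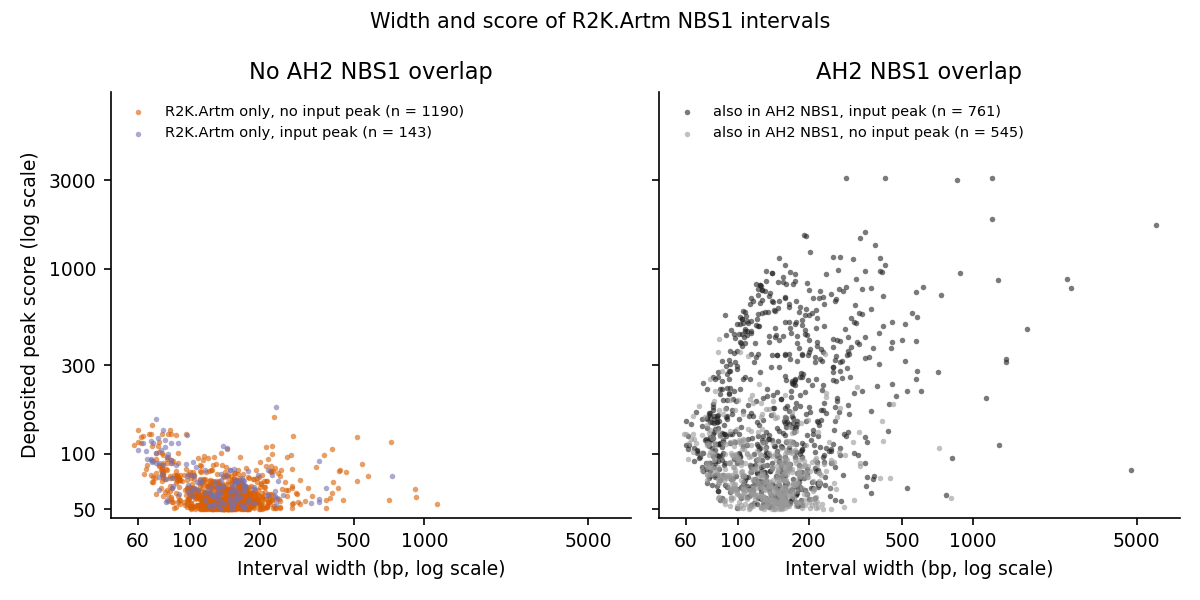
Width (bp, log scale) and deposited score (log scale) of each R2K.Artm NBS1 interval, on the left those without and on the right those with an AH2 NBS1 overlap, coloured by AH2 input overlap. On the left, scores over 100 lie mostly in intervals under 100 bp (37 of 49), while on the right high scores occur at all widths.

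The 10 highest-scoring R2K.Artm-only intervals without an input peak lay on 9 chromosomes in mm9. The highest was chr5:22543591-22543818, 228 bp wide with a score of 159. It was followed by chr12:66712610-66712678 (143), chr5:76446048-76446129 (135), chr10:73541168-73541227 (134), chr17:37459473-37459540 (128) and chr16:19425939-19426034 (128). The last 4 were tied at a score of 127.27, at chr6:107686582-107686664, chr8:92969738-92969818, chr11:89247645-89247711 and chr13:25539751-25539826. Apart from the first, all were 60 to 96 bp wide. The nearest AH2 NBS1 interval was 41.2 to 448 kb away from these 10, so none was the edge of a peak of the other line. In the R2K.Artm list kept here they ranked from 397 to 494, below many shared intervals.

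Equal scores were common among R2K.Artm-only intervals without an input peak. The score of exactly 127.27 was held by 7 R2K.Artm intervals on different positions. Of all R2K.Artm-only intervals, 727 had the score of another one, 54.5% (51.9 to 57.2%), against 258 of the 1306 shared intervals, 19.8% (17.7 to 22.0%). Ties were also common in the whole list: of all 2639 R2K.Artm intervals kept, 1238 had the score of another one, 46.9%. Within the class without an input peak it was 647 of 1190, 54.4% (51.5 to 57.2%). Within the class with one it was 13 of 143, 9.09% (5.39 to 14.9%). For shared intervals the 2 shares were 18.9% and 9.20%. Scores were matched within each class, and the classes differ in size. The R2K.Artm-only scores spanned 50 to 178, with the middle 50% from 53.02 to 65.41. The shared ones spanned 50.1 to 3100, with the middle 50% from 68.6 to 197.

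The 10 highest-scoring with an input peak also lay on 9 chromosomes, and 9 of them were under 100 bp wide. The highest, chr5:60434067-60434298, was 232 bp wide and had the highest score of the whole set, 178, with rank 350 in the list. Next were chr7:37076999-37077070 (155), chr16:25180270-25180346 (134), chr10:27741279-27741375 (125), chr18:69909279-69909351 (122), chr6:75130465-75130542 (118.5) and chr8:36291157-36291224 (117). Those at chr13:12085125-12085194, chr4:136961240-136961302 and chr8:118071965-118072053 had scores of 114. The interval on chromosome 6 was 65 bp from an AH2 NBS1 interval, and the others were 72.1 to 686 kb from one.

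Most of the widest intervals stood near an AH2 NBS1 interval. Without an input overlap, 3 of the 5 widest lay close together on chromosome 8, at 19755337 to 19756468 (1132 bp), 19801793 to 19802701 (909 bp) and 19857540 to 19858249 (710 bp), with scores of 53.6, 64.0 and 56.2. Each was 2.89 to 8.26 kb from an AH2 NBS1 interval, and the second was 441 bp from an input interval. The other 2 were chr6:47623699-47624623 (925 bp, score 58.1), 2.73 kb from an AH2 NBS1 interval, and chr13:34195201-34195922 (722 bp, score 116), 761 kb from one. The widest with an input overlap were chr2:22445002-22445730 (729 bp), chr1:135492127-135492508 (382 bp), chr2:22444320-22444676 (357 bp), chr4:149184494-149184848 and chr10:57686620-57686974 (355 bp each). The 2 on chromosome 2 were 21 and 26 bp from an AH2 NBS1 interval, and that on chromosome 1 was 321 bp from one. Their scores were 54.7 to 91.4.

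Few R2K.Artm-only intervals were near misses of the overlap rule. Within 250 bp of an AH2 NBS1 interval lay 17 of the 1333, 1.28% (0.798 to 2.03%), and within 1 kb lay 26. The closest was chr16:60992761-60993030, 9 bp from one with a score of 98.6, followed by chr8:9946604-9946724, 16 bp away with a score of 52.5. Just inside the overlap, and so not R2K.Artm-only, were chr10:72841744-72841866, which shared 2 bases with AH2 NBS1, and chr2:121348358-121348442, which shared 14.

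The median distance to the nearest AH2 NBS1 interval was 192 kb without an input peak and 182 kb with one. Within 10 kb lay 71 of the 1190, 5.97% (4.76 to 7.46%), and 18 of the 143, 12.6% (8.11 to 19.02%). As a background, 3.47% of all bases in the part of the autosomes considered were within 10 kb of an AH2 NBS1 interval. Within 100 kb the shares were 32.0% (29.4 to 34.7%) and 35.0% (27.6 to 43.1%), beside 29.1% of bases. At short range the 2 sets lay further apart: 7 of the 143 with an input peak were within 250 bp, 4.90% (2.39 to 9.76%), against 10 of the 1190 without one, 0.840% (0.457 to 1.54%), beside 0.114% of bases. R2K.Artm-only intervals were chosen for having no AH2 NBS1 overlap, while the bases include those inside AH2 NBS1 intervals. The comparison with bases is therefore not independent of the choice. The base share also counts single bases, not intervals, and takes no account of sequence to which reads cannot be mapped.

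**Figure D4:**
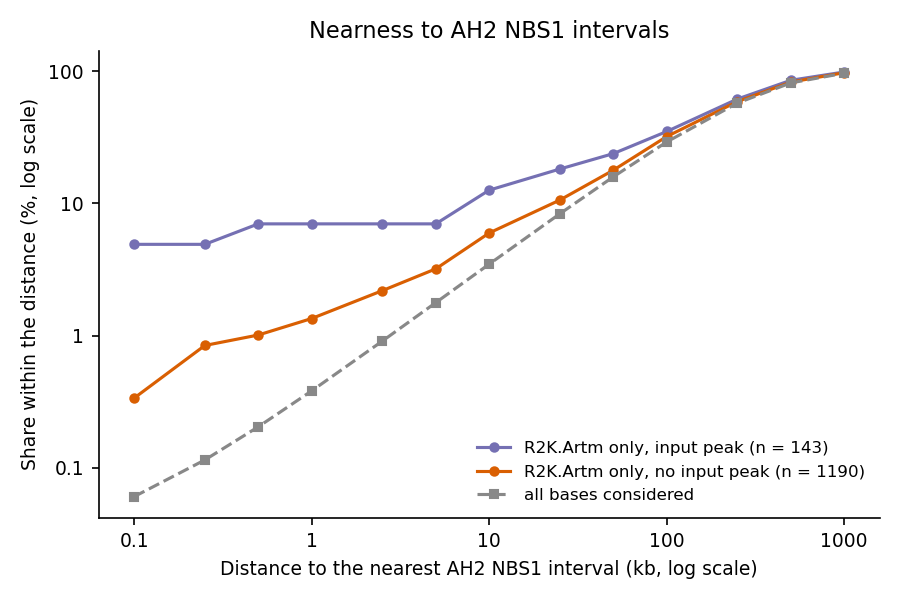
Share (%, log scale) of R2K.Artm-only intervals with and without an AH2 input peak that lie within each distance (kb, log scale) of the nearest AH2 NBS1 interval, beside the share of all bases considered. At 10 kb the shares are 12.6%, 5.97% and 3.47%, and from 100 kb on the curves nearly meet. The intervals were chosen to overlap no AH2 NBS1 interval, while the bases include those inside one.

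Distances to input were set beside the bases in the same way for the 1190 intervals without an overlap. These were chosen for having no input overlap, while the bases include those inside input intervals. The comparison therefore does not show how near to input the R2K.Artm-only intervals lay as a whole. Within 10 kb of an input interval lay 101 of the 1190, 8.49% (7.03 to 10.2%), beside 8.31% of bases. Within 100 kb lay 656, 55.1% (52.3 to 57.9%), beside 55.02% of bases. Within 1 kb lay 17, 1.43% (0.894 to 2.28%), beside 0.939% of bases, and within 250 bp lay 10, 0.840% (0.457 to 1.54%), beside 0.290% of bases. The base share was inside the counting interval at 1, 10 and 100 kb and below it at 250 bp.

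A further deposited list holds AH2 NBS1 peaks after subtraction of R2K.Artm NBS1 and, by its title, of input. Of the 1333 R2K.Artm-only intervals, 0 overlapped it, against 8 of all R2K.Artm intervals kept, 0.303%, and those 8 were shared intervals. The choice barred overlap only with those parts of the subtracted list that lie within AH2 NBS1 intervals. Not all of it does, as some R2K.Artm-only intervals lay nearer to the subtracted list than to any AH2 NBS1 interval. The count of 0 therefore followed from the choice for part of the subtracted list only. No R2K.Artm-only interval was within 1 kb of the subtracted list either, and 134 were within 100 kb, 10.05% (8.55 to 11.8%), beside 9.49% of bases. R2K.Artm peaks were also subtracted from it, by that title, so the count of overlaps says nothing about binding in AH2.

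Few R2K.Artm-only intervals had another of the set nearby, and their share was well above that of bases only within 1 kb. Another of the set was within 10 kb for 23 of the 1333, 1.73% (1.15 to 2.58%), beside 1.12% of bases and 7.77% of all R2K.Artm intervals kept, which were counted with any other interval of their list. Within 1 kb the count was 12, 0.900% (0.516 to 1.57%), beside 0.121% of bases, and within 100 kb it was 166, 12.5% (10.8 to 14.3%), beside 10.5% of bases. The base share was below the counting interval at all 3 distances, but only just at 10 and 100 kb. Neighbours are counted from each side, and the 23 within 10 kb form 11 groups, so these counting intervals are too narrow. The values at 10 and 100 kb are not called a difference from the bases. Among the 1306 shared intervals 120 had another shared one within 10 kb, 9.19% (7.74 to 10.9%), beside 1.05% of bases. A shared interval was within 10 kb of 39 R2K.Artm-only intervals, 2.93% (2.15 to 3.97%). The nearly equal sizes of both sets make the 1.73% and 9.19% comparable. AH2 NBS1 intervals without an R2K.Artm overlap, a larger set of 3028, had another of their own within 10 kb in 6.87% (6.02 to 7.83%).

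A single run of 3 R2K.Artm-only intervals, each under 10 kb from the next, was found, against 7 such runs of shared intervals with 38 intervals in all. It lay at chr8:40238189-40241134 and was 2946 bp long, with 0 AH2 NBS1 intervals and 2 input intervals. Its intervals, at 40238189 to 40238360, 40238418 to 40238666 and 40240619 to 40241134, had scores of 62.8, 59.8 and 124. The first and second overlapped input, and the third was 34 bp from an input interval. The nearest AH2 NBS1 interval was 255 kb from the third.

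The same stretch was in the fullest megabase, from 40 to 41 Mb of chromosome 8, with 5 R2K.Artm-only intervals beside 1 AH2 NBS1 interval and 6 input intervals. Of the megabases that held any, 770 held 1, 206 held 2, 34 held 3 and 11 held 4. The first of those with 4, from 22 to 23 Mb of chromosome 2, held 6 AH2 NBS1 and 9 input intervals as well, and all 4 of its R2K.Artm-only intervals overlapped input. The next, from 44 to 45 Mb of chromosome 4, held 1 AH2 NBS1 and 6 input intervals, and none of its 4, with scores of 54.5, 60.8, 58.1 and 74.0, overlapped input.

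By chromosome, R2K.Artm-only intervals followed length. Over the 2368 Mb considered there were 0.563 per Mb, from 0.451 on chromosome 13 to 0.719 on chromosome 8. The share of the total length lay inside the 95% interval of the share of intervals for 18 of the 19 autosomes. The exception was chromosome 8, with 91 intervals, 6.83% (5.59 to 8.31%), on 5.35% of the length. As 1 exception among 19 chromosomes compared, it is not called a difference. Chromosome 8 also had the highest density of shared intervals, 0.766 per Mb, with 7.43% (6.13 to 8.98%) of them. The same held for AH2 NBS1 intervals without an R2K.Artm overlap, at 1.55 per Mb and 6.47% (5.65 to 7.41%). The high density there was thus not particular to R2K.Artm-only intervals. The part with an input peak ranged from 6.45 to 15.1% of a chromosome's R2K.Artm-only intervals, on 4 to 13 intervals each. For shared intervals, 15 of the 19 chromosomes had their length share inside the interval, and chromosome 8 was among those outside it.

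**Figure D5:**
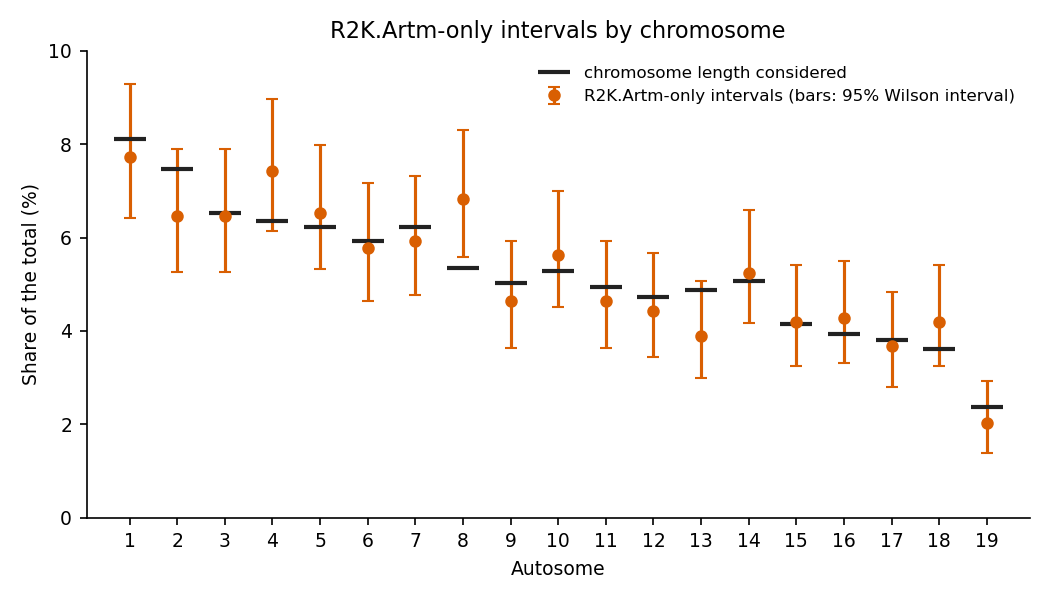
Share of the 1333 R2K.Artm-only intervals on each autosome (points, % of the set, with 95% Wilson intervals) and share of the length considered (black dashes). The dash lies within the bar on 18 of 19 autosomes, and on chromosome 8 the intervals have 6.83% against 5.35% of length.

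Antigen receptor loci other than the 2 left out were looked at as windows in whole megabases, set from general knowledge of the mm9 build and wider than the genes. Together the 4 windows span 6 Mb and held 8 R2K.Artm-only intervals, 1.33 per Mb, where all the length considered had 0.563 per Mb. They also held 2 shared, 17 AH2 NBS1 and 38 input intervals, where 1306, 4351 and 10536 were kept over 2368 Mb. The densities were not tested. The 8 were 80% (49.0 to 94.3%) of the 10 R2K.Artm intervals there, too few to set apart from the 50.5% of all those kept.

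In the immunoglobulin lambda (Igl) window, which holds the second light chain locus, the only R2K.Artm NBS1 interval was the one at chr16:19425939-19426034 named above, with a score of 128. It was 96 bp wide, 90.2 kb from the nearest AH2 NBS1 interval and 20.9 kb from the nearest input interval. The window held 3 AH2 NBS1 and 6 input intervals.

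In the T cell receptor beta (Tcrb) window, all 3 R2K.Artm NBS1 intervals were R2K.Artm-only. They lay at chr6:41120545-41120694 (score 75.4), 41782225 to 41782369 (54.2) and 40785529 to 40785693 (52.5), and none overlapped input. The 2 AH2 NBS1 intervals of the window were at least 178 kb from each of them.

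In the T cell receptor alpha and delta (Tcra/Tcrd) window, 3 of 5 were R2K.Artm-only, at chr14:54423925-54424079 (score 79.0), 53511590 to 53511793 (61.3) and 53991650 to 53991753 (52.3), none with an input overlap. AH2 NBS1 had 9 intervals there and input 20. The T cell receptor gamma (Tcrg) window held 1, chr13:19627545-19627618, with a score of 74.9 and an input overlap.

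In clusters of repeated genes, few R2K.Artm intervals were R2K.Artm-only. Of the 42 R2K.Artm NBS1 intervals in windows around the 5S ribosomal RNA cluster on chromosome 8 and the histone and tRNA gene clusters on chromosomes 13 and 3, set in the same way, 3 were R2K.Artm-only, 7.14% (2.46 to 19.01%), against 50.5% of all those kept. The 5S window alone held 24 R2K.Artm intervals, of which 1 was R2K.Artm-only, at 126077965 to 126078100 with a score of 50.1, and 1.53 kb from an AH2 NBS1 interval. The others were chr13:23713226-23713402 (55.7) and 21215064 to 21215245 (53.6). None of the 3 overlapped input. The window on chromosome 3 held 1 R2K.Artm interval, a shared one. The 3 windows, 5 Mb in all, also held 90 AH2 NBS1 intervals, where 4351 were kept over the 2368 Mb considered. As R2K.Artm-only intervals are those without an AH2 NBS1 overlap, their low share here describes the choice. The counting interval treats neighbouring intervals of a cluster as independent.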

How the data were processed

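The authors deposited 4 peak lists in mm9. Per the submitters' processing notes, Bowtie and MACS 1.4.2 were used; the sources used here give neither the Bowtie version nor the control set against each library. Fixation in 1% formaldehyde lasted 5 min, per the labels' protocols, and chromatin was sonicated to an average of 250 bp, and precipitated with 5 µg of antibody. The deposited value of each interval is a score of the authors' caller, probably a transformed p-value, though no header says so. How the caller set widths in each library is not given, so widths were compared within the R2K.Artm list.

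Intervals were joined in Python 3.11.15 (numpy 2.4.6, pandas 2.3.3, scipy 1.17.1), tested on simulated data and checked against bedtools 2.31.1. Figures used matplotlib 3.10.9. Shares of peaks carry 95% Wilson intervals that treat neighbours as independent. Length considered runs on each autosome from 5 Mb to the last base in any list, without the Igh and Igk windows. Starts had 1 added. No mm9 sequence or annotation was used, so no sequence or gene is printed, and the planned sequence and gene comparisons were not run. The regions, windows and limits were chosen with earlier results of these data known. Named are the 10 highest-scoring and 5 widest intervals of each class, intervals in windows, runs of 3 or more and the 3 fullest megabases, plus, chosen after their values were seen, those nearest the overlap limit. Alternatives were other overlap rules, a score of at least 100, no exclusions, 100 kb for neighbours and, added after seeing the data, a width of at least 100 bp.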

Additional observations from a re-analysis of the deposited data

How the results depend on the processing

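Of 23 alternative values for 7 results, 11 stayed inside the 95% interval of the reported value and 12 did not. No paired analysis was possible because the groups have no replicates, and none of the 3 libraries could be dropped. The share of R2K.Artm intervals absent from AH2 NBS1 (50.5%) was 58.1% when at least 50% of the interval had to be covered, 7.11% at R2K.Artm scores of at least 100, 70.03% against AH2 NBS1 scores of at least 100, 48.0% with no exclusions and 53.6% for widths of at least 100 bp. The share with an input overlap (10.7%) was 8.55% at 50% coverage, 36.7% at scores of at least 100 (49 intervals), 4.05% against input scores of at least 100, and 8.71% for widths of at least 100 bp. The share with a neighbour (1.73% within 10 kb) was 12.5% within 100 kb, 0% of the 49 at scores of at least 100, and 2.61% with no exclusions. A score limit on the AH2 NBS1 or input list, the coverage rule and a wider distance act by construction. For the score limit on the R2K.Artm intervals themselves, the width limit and the exclusions, the cause was not tested. The alternatives on simple sequence repeats and widened intervals were not run, as they needed mm9 sequence. Depth is unknown, and 40.06% of the R2K.Artm-only intervals score under 55, close to the minimum of 50; whether AH2 had signal just under its own threshold at these places was not tested.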
